A study of Mus musculus with 2 samples.

Results

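Atf4 and 4 genes of the response to amino acid stress (Pycr1, Gars, Chac1 and Sesn2) were followed in the embryonic mouse cortex with and without Trrap. Each of the 5 had exactly 1 row, under its own symbol, among the 2381 rows of the deposited expression table. The members were chosen by symbol from a table that holds only loci the authors called different between these same libraries, so their differences are given as a description and carry no test here. RNA sequencing was done on E14.5 cortex (the embryonic day) in 2 samples, 1 per genotype, both on a B6/129 background. The Trrap-deleted sample carried both floxed Trrap alleles and NestinCre (TrrapF/F NestinCre+). The control, entered as wild type, was TrrapF/+ NestinCre+: it was heterozygous and carried the same Cre. NestinCre drives recombination mainly in neural progenitors and the cells they give rise to. The labels name neither the number of embryos behind a sample nor their sex. The sex-linked genes Eif2s3y and Xist differed between the libraries (values below), so sex and genotype cannot be told apart.

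Trrap is the scaffold of histone acetyltransferase complexes that transcription factors such as Myc recruit to promoters. Atf4 is the effector transcription factor of the integrated stress response: when amino acids run short or the endoplasmic reticulum is overloaded, kinases phosphorylate the translation factor eIF2, general translation slows and Atf4 mRNA is translated more. Atf4 protein then binds composite C/EBP-ATF elements (CARE) at genes of amino acid synthesis, amino acid transport and tRNA charging, often beside other bZIP factors. Because this control lies largely in translation, the level of Atf4 mRNA is not a measure of Atf4 protein.

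The stretches before the start sites of the 5 genes are shown because Atf4 can bind such stretches at its target genes, and because the 5 differed in both directions. Binding was not measured here. They come from RefSeq (GRCm38.p6) and begin 250 bases before the RefSeq start. The bases that a second annotation (GENCODE M21) places inside the transcript were left off (21 for Pycr1, 13 for Chac1, 45 for Sesn2). Each runs 5′ to 3′ on the strand of the gene, and capitals mark matches, on either strand, to TGATGNAA (the core of the CARE), to TGACGNAA (a variant of it) or to CCAAT (the CCAAT box, bound by NF-Y).
Atf4, chr15:80254934-80255183, plus strand: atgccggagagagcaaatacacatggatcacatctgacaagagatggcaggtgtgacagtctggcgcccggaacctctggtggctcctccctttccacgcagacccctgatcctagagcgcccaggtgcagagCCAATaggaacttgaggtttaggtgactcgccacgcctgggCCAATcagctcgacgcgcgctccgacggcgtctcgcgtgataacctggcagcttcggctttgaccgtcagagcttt
Pycr1, chr11:120643770-120643998, minus strand: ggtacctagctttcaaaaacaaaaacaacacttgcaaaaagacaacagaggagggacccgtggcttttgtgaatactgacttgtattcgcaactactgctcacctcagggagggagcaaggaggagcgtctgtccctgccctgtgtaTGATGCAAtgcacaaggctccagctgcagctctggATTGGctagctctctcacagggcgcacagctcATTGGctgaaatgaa
Gars, chr6:55037751-55038000, plus strand: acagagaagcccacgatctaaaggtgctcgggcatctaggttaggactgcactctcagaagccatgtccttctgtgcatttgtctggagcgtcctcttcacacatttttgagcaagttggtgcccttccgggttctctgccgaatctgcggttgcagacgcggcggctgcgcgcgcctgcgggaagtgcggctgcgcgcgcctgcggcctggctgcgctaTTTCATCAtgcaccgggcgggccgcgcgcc
Chac1, chr2:119350992-119351228, plus strand: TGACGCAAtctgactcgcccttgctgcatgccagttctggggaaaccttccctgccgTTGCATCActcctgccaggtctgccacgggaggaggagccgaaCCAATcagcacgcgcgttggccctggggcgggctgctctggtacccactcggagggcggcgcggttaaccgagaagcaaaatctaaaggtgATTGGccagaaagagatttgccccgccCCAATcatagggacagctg
Sesn2, chr4:132510502-132510706, minus strand: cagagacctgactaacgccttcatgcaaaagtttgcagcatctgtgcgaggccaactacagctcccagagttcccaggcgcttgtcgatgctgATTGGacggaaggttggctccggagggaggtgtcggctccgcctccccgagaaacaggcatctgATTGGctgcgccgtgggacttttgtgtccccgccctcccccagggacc

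Matches to TGATGNAA within the 250 bases lay in 3 of the 5 stretches: in Pycr1 (TGATGCAA, position -103), in Gars (TTTCATCA, the opposite strand, position -30) and in Chac1 (TTGCATCA, the opposite strand, position -193). Positions count from the RefSeq start, the base before it being -1, and give the leftmost base of the match as printed. Over all 32851 promoters of the same length in the RefSeq table, 3.45% held this motif. Chac1 also held TGACGCAA at the far end of its stretch, a match to the variant that 1.39% of all promoters held. The stretches of Atf4 and Sesn2 held neither. CCAAT was present in all but Gars: 3 matches in Chac1 and 2 each in Atf4, Pycr1 and Sesn2, against 33.8% of all promoters with at least 1. The E-box CACGTG, the core bound by Myc, was in none of the 5 and in 6.02% of all promoters. The matches did not follow the direction of the expression differences: the CARE core was present at 2 genes that were lower in the Trrap-deleted library (Pycr1, Gars) and at 1 that was higher (Chac1). A match is a run of letters and not a measured binding site. The motifs were chosen after the sequences were seen, and the genes were grouped as Atf4 and amino acid stress genes. The shares of all promoters are therefore given as description only. With a motif as uncommon as the E-box, its absence from 5 stretches says little.

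The values are FPKM, a fragment count per transcript length and sequencing total, so genes can be compared with each other within a library. Fold changes are Trrap-deleted over control. With 1 library per genotype, no error between embryos could be given for any value. The authors' deposited q-values quoted below rest on the same libraries, so they cannot include that error either. Sequencing depth is unknown too, so no counting interval could be set.

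Of the 5 genes, 3 were lower and 2 were higher in the Trrap-deleted library. Of the 2376 rows that were above 0 in control and Trrap-deleted cortex, 42% were lower and 58% higher. All 5 differed by at least 1.5-fold, as did 31.4% of all rows in the lower and 47.1% in the higher direction. Since the rows were listed for a difference, nothing can be read from these counts about the members. Atf4, Gars and Pycr1 were the more abundant members in the control and were lower in the Trrap-deleted library, and Chac1 and Sesn2 were the least abundant and were higher.

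**Figure D1:**
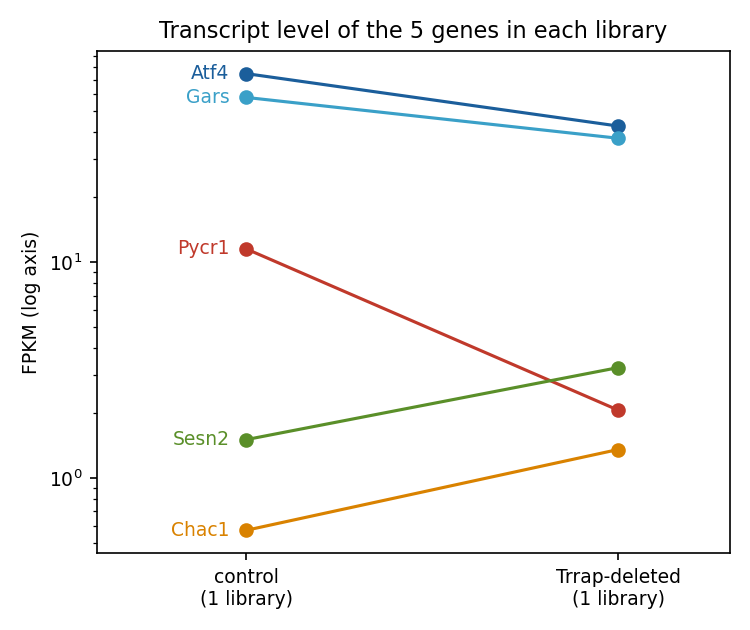
Level of each of the 5 genes (FPKM, log axis) in each library, 1 per genotype, with a line joining the values of a gene. Atf4, Gars and Pycr1 slope down, Chac1 and Sesn2 slope up, and Pycr1 (11.5 to 2.06) crosses Sesn2 (1.505 to 3.25).

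Atf4 (locus XLOC_012788, mm9 chromosome 15, 80085614 to 80087970) stood at 74.7 FPKM in the control and 42.7 FPKM in the Trrap-deleted library. The Trrap-deleted level was 57.1% of the control level, a log2 fold change of -0.81 (1.75-fold lower). In the authors' deposited table this row had q = 1.34e-06. Atf4 remained the most abundant of the 5 genes in both libraries, above 84.6% of all rows in the control and above 76.9% of them after Trrap deletion.

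Pycr1 (XLOC_006957, mm9 chromosome 11, 120497026 to 120505083) encodes the mitochondrial reductase that completes proline synthesis from pyrroline-5-carboxylate. It stood at 11.5 FPKM in the control and 2.06 FPKM in the Trrap-deleted library, 17.9% of the control level (log2 fold change -2.48, 5.59-fold lower), with q = 4.22e-08 in the authors' deposited table. By log2 fold change it ranked 14 from the lowest among the 2376 rows above 0 in control and Trrap-deleted cortex. Pycr1 was the third of the 5 genes by level in the control and the fourth in the Trrap-deleted library.

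Gars (XLOC_030536, mm9 chromosome 6, 54987960 to 55030474) encodes glycyl-tRNA synthetase, which charges glycine onto its tRNA in the cytosol and in mitochondria. Its level was 57.9 FPKM in the control and 37.5 FPKM in the Trrap-deleted library, a log2 fold change of -0.63 (1.55-fold lower). The authors' deposited table gives q = 2.4e-05 for this row. Its locus in the table spans 42515 bases, against 41494 for the gene in GENCODE M21, whereas the loci of Pycr1 (8058), Chac1 (3153) and Sesn2 (18470) have the annotated length and that of Atf4 (2357) is 1 base short of it.

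Chac1 (XLOC_020170, mm9 chromosome 2, 119176965 to 119180117) encodes a gamma-glutamylcyclotransferase that breaks down glutathione. It was scarce in both libraries, at 0.572 FPKM in the control and 1.35 FPKM in the Trrap-deleted library, a log2 fold change of 1.24 (2.37-fold higher) that amounts to 0.783 FPKM. In the authors' deposited table its q was 0.0114, the highest of the 5.

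Sesn2 (XLOC_027241, mm9 chromosome 4, 132047947 to 132066416) encodes sestrin 2, a leucine sensor that restrains the growth kinase complex mTORC1 and whose gene is a target of both Atf4 and p53. Its level was 1.505 FPKM in the control and 3.25 FPKM in the Trrap-deleted library (log2 fold change 1.11, 2.16-fold higher), with q = 0.000265 in the authors' deposited table. The annotation has another transcript, Gm12981, over 6089 bases of the Sesn2 locus on the same strand, so some reads could belong to either gene.

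Comparing members within a library removes any common scaling of that library. The level of Gars relative to Atf4 was nearly the same in both libraries, at 0.776 in the control against 0.878 with Trrap deleted. Chac1 relative to Sesn2 also differed little, at 0.380 and 0.417. Pycr1 separated from both pairs. Pycr1 relative to Atf4 went from 0.154 to 0.0483, 3.19-fold lower, and Pycr1 relative to Sesn2 from 7.66 to 0.636, 12.05-fold lower. Sesn2 relative to Atf4 went from 0.0202 to 0.0760, 3.77-fold higher. The order in the control was Atf4, Gars, Pycr1, Sesn2, Chac1, and in the Trrap-deleted library Pycr1 and Sesn2 changed places. Whether neighbours in these orders differ beyond the spread between embryos cannot be told with 1 library each.

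**Figure D2:**
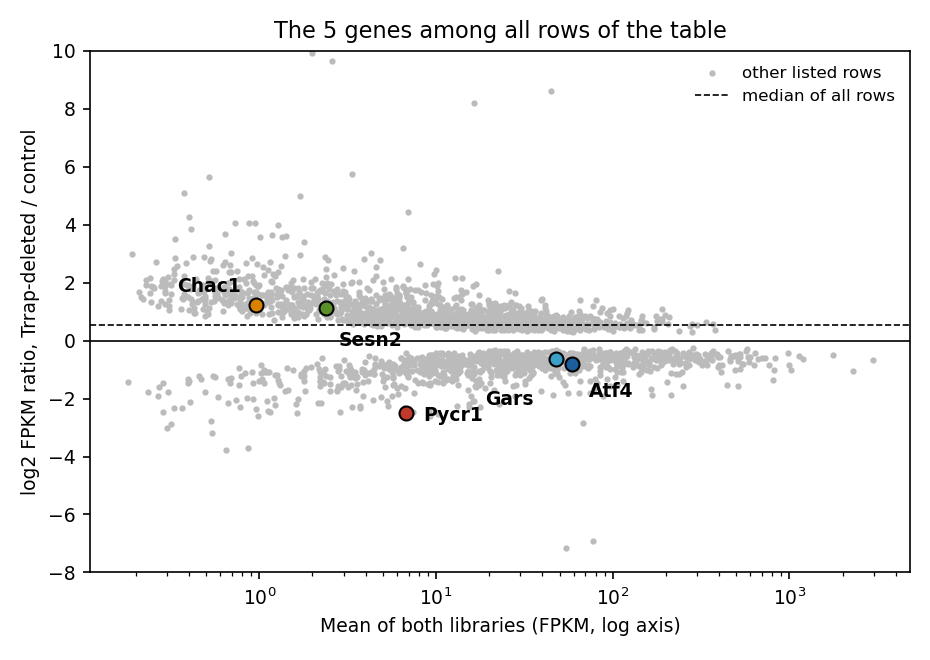
Difference of each row (log2 FPKM ratio, Trrap-deleted over control) against its mean level in both libraries (FPKM, log axis), with the 5 genes named and all other listed rows in grey, and a dashed line at the median of all rows (0.54). Pycr1, at -2.48, lies below the rows of similar level, while Chac1 (1.24) and Sesn2 (1.11) lie among many higher rows at low level and Atf4 (-0.81) and Gars (-0.63) within the lower band.

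The differences of listed rows moved with their level, so each gene was set beside the 200 rows nearest to it in mean level (the mean of the log2 FPKM of both libraries). Around Chac1, 159 of 200 rows were higher, with a median log2 fold change of 1.40 against 1.24 for Chac1, and the smallest difference listed there was 1.65-fold. Around Sesn2, 140 of 200 were higher, with a median of 1.05 against 1.11 for Sesn2. The differences of Chac1 and Sesn2 were thus like those of listed rows of their own level. Around Pycr1, 147 of 200 rows were higher, with a median of 0.85, and none was as low as Pycr1. Around Atf4, 110 of 200 rows were lower and 36 were as low as Atf4, and around Gars 105 were lower and 66 were as low as Gars. Relative to these medians the log2 fold changes became -3.33 for Pycr1, -0.38 for Atf4, -0.23 for Gars, 0.06 for Sesn2 and -0.15 for Chac1. The sign of Chac1 thus turned. The nearest rows were themselves all listed for a difference, so their median is not a level of no change. A turned sign here places Chac1 just under that median and does not make its transcript lower in the Trrap-deleted library. After rescaling both libraries so that the median of all rows was 0, Atf4 was at -1.35, Pycr1 at -3.03, Gars at -1.17, Chac1 at 0.70 and Sesn2 at 0.56.

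**Figure D3:**
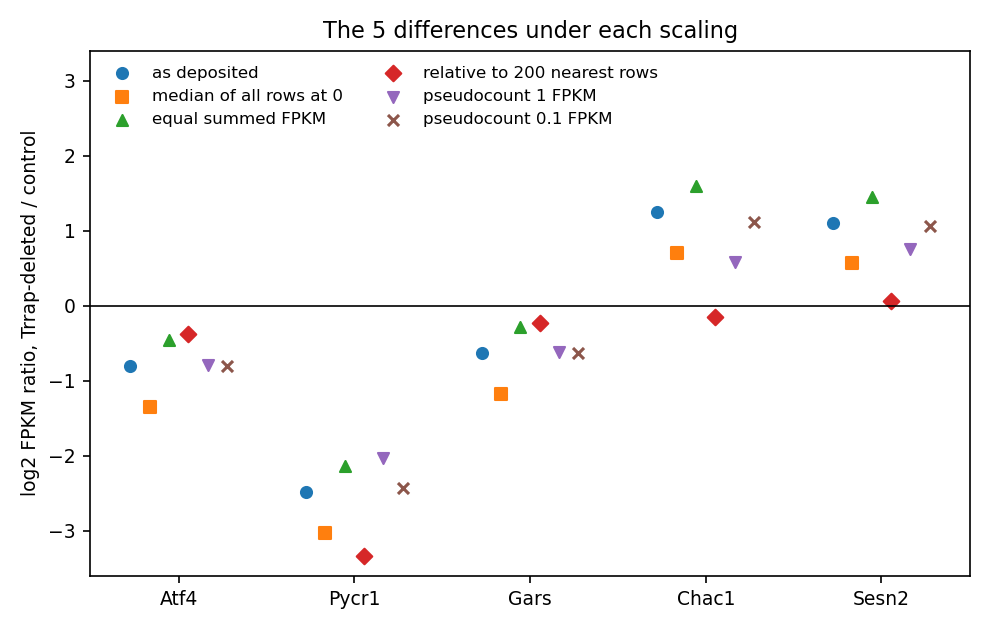
The log2 FPKM ratio (Trrap-deleted over control) of each of the 5 genes as deposited, under 3 other scalings and with a pseudocount of 1 or 0.1 FPKM added to both values. Atf4, Pycr1 and Gars lie below 0 in every setting shown, Sesn2 above 0 in every one, and Chac1 falls to -0.15 relative to the 200 nearest rows.

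The other genes of the pathway were taken from 10 lists of textbook members, described by their listed genes and set beside the median log2 fold change of all rows, 0.54. A symbol without a row in the table did not pass the authors' test or was not expressed, and which of these held is unknown. The 8 lists of the integrated stress response and amino acid handling held 192 symbols, of which 32 were listed, 17 lower and 15 higher, with a median of -0.46. Rows were listed for a difference, so few lie near 0, and the median of a near-even split falls beside that gap. Here it lay between Lars (-0.50) and Eif2s3x (-0.42), the smallest of the lower differences. It is not the value of a typical gene, and its distance from 0.54 does not measure a shift. Without the 5 members, 27 were listed, 14 lower and 13 higher. Of the 38 listed genes of the 10 lists, 0 changed direction when the median of all rows was set to 0 or when the libraries were set to equal summed FPKM. Both scalings shift every row by a constant, and none of these genes lay close enough to 0 to turn. Relative to the 200 rows nearest in level, Eif2s3x, Slc7a8 and Chac1 changed direction.

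**Figure D4:**
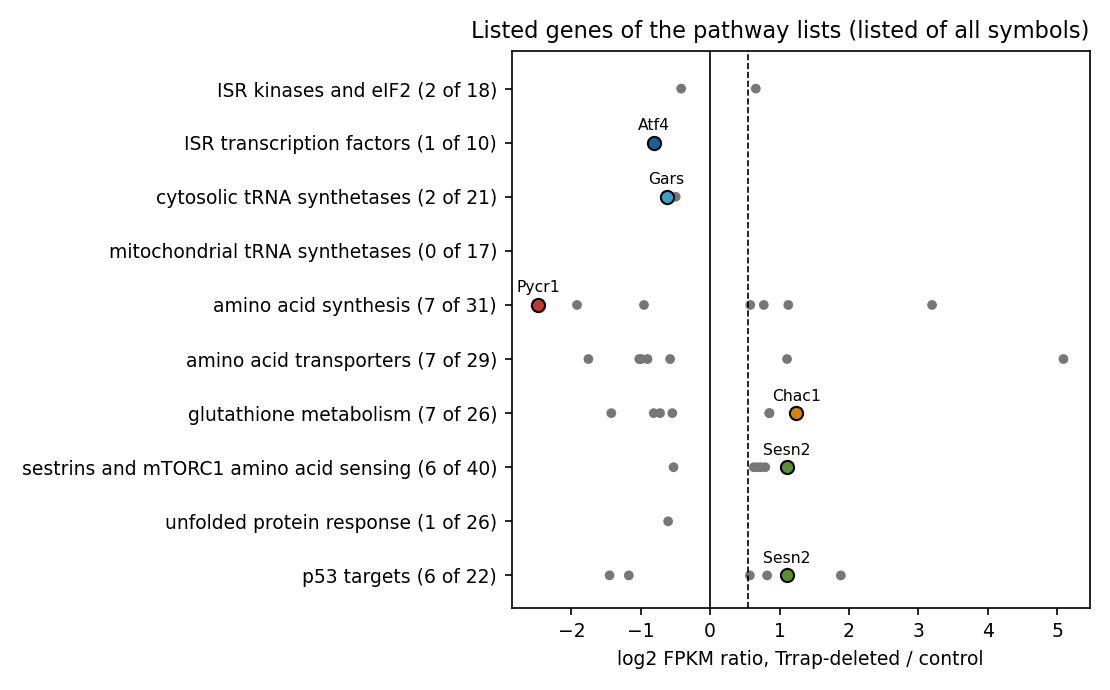
Each point is a listed gene of a pathway list, placed by its log2 FPKM ratio (Trrap-deleted over control), with the number listed and the number of symbols beside the name of the list (ISR, integrated stress response), the 5 genes named, and a dashed line at the median of all rows (0.54). Listed amino acid transporters lie mostly below 0 (5 of 7) and listed genes of the mTORC1 sensing list mostly above 0 (5 of 6). Of all rows, 42% lie below 0 and 58% above, and no test was run on these few genes.

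Upstream of Atf4, of 18 genes of the eIF2 kinases, eIF2 and its exchange factor and phosphatases, 2 were listed. Eif2s3x, the X-linked gamma subunit of eIF2, stood at 96.2 FPKM in the control and 72.0 FPKM in the Trrap-deleted library. Its Y-linked copy Eif2s3y went from 0.111 to 32.8 FPKM and Xist, transcribed from the inactive X chromosome, from 313 to 142 FPKM, so the sex of the embryos and the genotype cannot be told apart. The gene listed as 0610009O20Rik, the older symbol of Dele1, which relays mitochondrial stress to an eIF2 kinase, stood at 15.6 and 24.6 FPKM. None of the 4 eIF2 kinase genes (Eif2ak1 to Eif2ak4) was listed. Among 10 transcription factor genes of the response Atf4 was the only one listed, and Ddit3, Atf3, Atf5, Cebpg and Trib3, several of which are induced through Atf4, were not.

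Of 21 cytosolic tRNA synthetase genes, Gars and Lars were listed, both lower. Lars, the leucyl-tRNA synthetase gene, stood at 26.7 FPKM in the control and 19.0 FPKM in the Trrap-deleted library (log2 fold change -0.50). The other 19, which include further Atf4 targets such as Nars and Wars, were not listed, nor was any of 17 genes of mitochondrial tRNA synthetases.

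Listed genes of amino acid synthesis went both ways, 3 lower and 4 higher of 31 symbols, with a median log2 fold change of 0.58. With this split the median is the value of Got2, the smallest of the 4 higher differences, and not that of a typical gene. Besides Pycr1, Bcat1, which transfers amino groups from the branched-chain amino acids, was lower (44.2 to 11.7 FPKM, 3.78-fold). Mthfd1l, a mitochondrial enzyme of the folate cycle, was also lower (2.42 to 1.25 FPKM). Oat, which makes pyrroline-5-carboxylate, the substrate of Pycr1, from ornithine, was higher (38.8 to 66.3 FPKM). Also higher were Srr, serine racemase (25.9 to 56.6 FPKM), and Aldh1l1, a folate enzyme typical of astroglia (1.27 to 11.7 FPKM). Got2, the mitochondrial aspartate aminotransferase gene, named after its value was seen, was the fourth (42.6 to 63.7 FPKM). Aldh18a1, which starts proline synthesis from glutamate, was not listed. Asns, Phgdh, Psat1 and Mthfd2, which are known Atf4 targets, were not listed either.

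Of 29 amino acid transporter genes 7 were listed, 5 lower and 2 higher, with a median log2 fold change of -0.90. Slc38a2, the sodium-coupled neutral amino acid transporter SNAT2 and an Atf4 target, stood at 75.9 FPKM in the control and 38.2 FPKM in the Trrap-deleted library. Slc1a4, a transporter of serine and alanine, went from 16.4 to 8.06 FPKM, and Slc43a1, which carries large neutral amino acids, from 3.87 to 1.15 FPKM. Slc7a1, a carrier of arginine and lysine, went from 8.40 to 5.63 FPKM. Slc38a1, the related transporter SNAT1, named after its value was seen, went from 53.7 to 28.7 FPKM. The 2 higher ones were Slc7a8 (1.18 to 2.54 FPKM) and Slc6a7, a brain proline transporter that was scarce in both libraries (0.0215 to 0.733 FPKM). The cystine transporter gene Slc7a11 and the heavy chain gene Slc3a2 were not listed.

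Of 26 genes of glutathione metabolism 7 were listed, 4 lower and 3 higher, with a median of -0.55. With this split the median is the value of Gclm, the smallest of the 4 lower differences, and not that of a typical gene. Next to Chac1, the glutathione transferase genes Gstp1 (49.4 to 89.3 FPKM) and Gstm5 (77.4 to 140 FPKM) were higher. Txnrd1, thioredoxin reductase 1, was lower (75.8 to 28.3 FPKM), as were Mgst3 (10.3 to 5.88 FPKM) and Gpx1, a glutathione peroxidase gene (51.0 to 30.9 FPKM). Gclm, a subunit of the enzyme that starts glutathione synthesis, named after its value was seen, was also lower (313 to 215 FPKM). The paralogue Chac2 was not listed. Gstp1, Gstm5 and Mgst3 belong to families with similar copies, between which reads can be split.

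Of 40 genes of the sestrins and of amino acid sensing by mTORC1 6 were listed, 5 higher and 1 lower, with a median of 0.71. Besides Sesn2, the higher ones were Tsc2, an inhibitor of mTORC1 (20.7 to 32.0 FPKM), Mlst8, a subunit of mTORC1 (10.9 to 18.1 FPKM), Wdr59, a subunit of the GATOR2 complex that sestrins bind (8.24 to 14.3 FPKM), and Lamtor2, of the lysosomal anchor of mTORC1 (35.9 to 57.7 FPKM). Ulk1, a kinase that starts autophagy, was lower (30.1 to 20.9 FPKM). These genes encode inhibitors and parts of the complex alike. Sesn1, Sesn3 and Ddit4 were not listed.

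Neighbouring stress pathways were set beside these. Of 26 genes of the unfolded protein response, Xbp1 was the only one listed (36.6 to 24.1 FPKM), and the chaperone gene Hspa5 was not. Of 22 p53 targets 6 were listed, 4 higher and 2 lower. Next to Sesn2, Bax (44.8 to 66.6 FPKM), Ccng1 (11.7 to 20.6 FPKM) and Pmaip1 (0.119 to 0.438 FPKM) were higher, and Trp53inp1 (41.6 to 18.5 FPKM) and Psrc1 (29.7 to 10.9 FPKM) were lower. Cdkn1a and Mdm2 were not listed.

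The rows most like each gene were found by distance over the 2 libraries in log2 FPKM. For Atf4 they were Epb4.1 (74.4 to 43.4 FPKM, distance 0.023), Csrp2 and Midn. For Gars they were Zfp146 (60.0 to 37.8 FPKM, distance 0.051), 2400003C14Rik and Rangap1. Pycr1 had fewer close companions: Tgif1 (11.1 to 2.20 FPKM, distance 0.107), Rnf122 (distance 0.189) and C230035I16Rik (distance 0.405). For Chac1 they were Adssl1 (0.566 to 1.36 FPKM, distance 0.019), Kcnj9 and Map6d1, and for Sesn2 they were Nrip3 (1.51 to 3.29 FPKM, distance 0.019), Ctss and Mgat4a.

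Trrap had no row and could not serve to check the labels. Of 16 markers of the cortical excitatory lineage 4 were listed, 1 higher and 3 lower, at a summed 495 FPKM in the control and 443 FPKM in the Trrap-deleted library. Among markers of other cells, 9 of 14 microglial genes were listed, all higher (summed 11.0 and 28.99 FPKM), as were 5 of 12 meningeal genes (2.66 and 15.4 FPKM), 2 of 12 endothelial and pericyte genes (2.07 and 4.24 FPKM), 1 of 10 erythroid genes (96.8 and 157 FPKM) and 1 of 6 choroid plexus genes (0.104 and 3.31 FPKM). Over all rows 58% were higher. Of the 200 rows nearest in level to Chac1 and to Sesn2, which were scarce too, 79.5% and 70% were higher. Most listed rows at such low levels were thus higher. That covers direction only, and not the erythroid gene Hbb-y, which was not scarce. In size, the median log2 fold changes of those nearest rows were 1.40 and 1.05. Listed meningeal genes had a median of 3.57, and the choroid plexus gene Ttr stood at 4.99. Listed microglial genes ran from 1.18 to 2.06, and the endothelial and pericyte genes Pdgfrb and Cspg4 stood at 1.07 and 0.85. Of 14 ventral telencephalic genes 4 were listed lower and 1 higher (34.5 and 25.3 FPKM). Some of these directions depended on the scaling: with the median of all rows at 0 Neurog2 turned lower, at equal summed FPKM Neurod6 turned higher, and relative to the 200 rows nearest in level Neurod6 and Fezf2 turned higher and Cspg4, a pericyte gene, lower. None of these listed markers was at 0 in a library. The part of these cells in the differences of the 5 genes was not tested, and in a bulk sample fewer cells of a type and less RNA per cell cannot be told apart.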

How the data were processed

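RNA sequencing values of 2 cortex samples (E14.5, 1 per genotype) were used. TruSeq libraries were made from about 2.5 µg of total RNA each, per the labels' protocols. Reads were aligned with TopHat2 and the build was mm9, per the submitters' processing notes. Counting software, testing software and the use of strand have no entry in the sources used here. The FPKM values for CONTROL and KO are as deposited by the authors, the unit being read from the column layout. The log2 fold change, p-value and q-value columns are also the authors' deposited values, and every row has a q-value under 0.05, so only loci they called are present.

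From these, log2(Trrap-deleted FPKM / control FPKM) was computed without a pseudocount (Python 3.11.15, pandas 2.3.3). It equalled the deposited log2 fold change of the 5 genes to within 8.17e-06. The control sample was matched to CONTROL and the knockout to KO by label. With 1 library per genotype no test was run. Depth per library is unknown. Starts were moved to 1-based counting. A symbol with several rows was represented by its most abundant row, and the 59 rows naming more than 1 symbol did not enter lists.

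The members, the 10 pathway lists and the 7 marker lists were chosen with earlier results of these data known, and the motifs after the sequences were seen. Genes named were the 5 members, all listed genes of a list with up to 6 listed, otherwise the 3 highest and 3 lowest log2 fold changes, and the 3 rows nearest each member in log2 FPKM. The sex-linked genes, the markers and the nearest listed rows on the chromosome were named after their values were seen, as were genes so described in the text. Motifs were searched on both strands in the 250 bases before each RefSeq start (GRCm38.p6), and GENCODE M21, on the same build, gave gene lengths and overlaps. All 5 members matched both. No coordinate was converted from or to mm9. Alternatives were 3 other scalings, pseudocounts of 1 and 0.1 FPKM, a q-value under 0.01, a minimum of 1 FPKM in the higher library, and counting rows with several symbols. The procedure was tested on simulated rows that followed a smooth trend with level and were not selected for a difference. The listed rows were so selected, so that test does not cover the comparison with the nearest rows here. With no replicate error, a log2 value was said to move when it changed by 1.5-fold or more.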

Additional observations from a re-analysis of the deposited data

How the results depend on the processing

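Under the 3 other scalings, 12 of 15 values of the 5 genes kept their direction and moved by less than 1.5-fold. Setting the median to 0 or equal summed FPKM shifts every row by a constant (log2 median 0.54, log2 ratio of summed FPKM -0.35). Each constant is smaller than 1.5-fold and than the smallest difference of the 5 genes, Gars at -0.63. These scalings could therefore neither move nor turn a member, and only the comparison with the nearest rows could. With a pseudocount, which cannot change a direction, 9 of 10 moved by less than 1.5-fold. Row filters leave the value of a gene as it was. Relative to the 200 rows nearest in mean level, Pycr1 went to -3.33, Sesn2 to 0.061 and Chac1 to -0.15, the last with its sign turned. Those rows were all listed for a difference, so their median is not a level of no change. Chac1 went to 0.58 with a pseudocount of 1 FPKM, which by construction shrinks differences of scarce genes. At a q-value under 0.01 Chac1 had no value, since its row did not pass. Among rows that reached 1 FPKM in their higher library, Chac1 stood above 4.56% of control values and 5.54% of Trrap-deleted values, against 9.51% and 11.0% over all rows, and the percentiles of the other 4 genes moved by less than 1.5 times.

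Under the 3 other scalings, 57 of 60 counts of listed genes stayed within 1.5 times. With the median at 0 or equal summed FPKM, 0 of 38 listed genes changed direction, so none of those counts could move. Only the comparison with the nearest rows could move a count, and there 17 stayed and 3 moved. Relative to the nearest 200 rows, listed genes of the eIF2 kinases and eIF2 became 2 higher and 0 lower, and 1 amino acid transporter was higher. Among rows that reached 1 FPKM, 1 transporter was higher too. At a q-value under 0.01, which leaves fewer rows, 1 cytosolic tRNA synthetase gene, 2 glutathione genes and 0 genes of the unfolded protein response were lower. The medians then turned to -0.19 for amino acid synthesis and 0.065 for glutathione metabolism. Both lists were evenly split there, so each median fell in the gap between the lower and the higher genes. Counting rows with several symbols changed no count. No paired analysis was possible because each genotype had 1 library and no test was run. No limit from depth could be set, since the depth is unknown.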

Other observations

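The loci of the 5 genes lie on 5 chromosomes, and no other listed row overlapped them. The nearest listed row to Sesn2 was Atpif1, an inhibitor of the mitochondrial ATP synthase, 20.1 kb away on mm9, which differed in the opposite direction (194 to 117 FPKM). The nearest to Atf4 was Mgat3, a glycosyltransferase gene 39.7 kb away, which stood at 12.1 FPKM in the control and 17.0 FPKM in the Trrap-deleted library and turned slightly lower (log2 fold change -0.05) with the median of all rows at 0. For Gars the nearest was 2410066E13Rik, 334 kb away (47.2 to 30.7 FPKM), and for Chac1 it was H3f3c, 311 kb away (185 to 99.9 FPKM).

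The CARE core TGATGNAA was rare among listed genes with a promoter in the RefSeq table, counting 1 promoter per gene and including the members. It was present in 11 of 552 lower genes (1.99%), Pycr1 and Gars among them, and in 16 of 915 higher genes (1.75%), Chac1 among them. Of 23 other listed genes of the 8 stress response and amino acid lists with a promoter, only Eif2s3x held it, and 8 of 23 held a CCAAT box. The CCAAT box was present in 43.3% of the lower and 33.3% of the higher genes. These shares are descriptions with no test. The shares of all promoters given earlier count every promoter of the RefSeq table and not 1 per gene, so they are not a like reference for these.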
